A study of Mus musculus with 24 samples.

Results

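The genes described here are 37 transcripts of the extracellular matrix and of contractile stromal cells: collagens, matrix proteins, and fibroblast and smooth muscle markers, chosen by symbol from the 35770 gene names of an RNA-seq table of bone marrow-derived macrophages (BMDMs). Levels are given in TPM, the length-scaled share of a transcript among all transcripts of a library. The deposited values were taken as TPM from their sums, and a comparison of levels between genes rests on this. The BMDMs were grown from the bone marrow of C57BL/6 mice in 20 ng/mL M-CSF, the growth factor that drives marrow progenitors toward macrophages, and the ages and the number of the mice were not given in the sources used here. They were then kept for 24 h in 1 of 4 media, and each medium was combined with vehicle or with 100 nM CDDO-Me, a synthetic oleanane triterpenoid that activates the transcription factor NRF2. The control medium (media) had stood for 48 h without cells. The 3 conditioned media (CM) had stood for 48 h on LL2 Lewis lung carcinoma cells, made up 75% of the final medium, and came from LL2 cells that were WT, KEAP1 KO (loss of the protein that degrades NRF2) or NRF2 KO. The knockouts were made with CRISPR plasmids in the cancer cells, so the macrophages of all 8 groups shared 1 unedited background. Whether a knockout line was a single clone was not given. Each group had 3 libraries, named for instance WT CM/vehicle replicate 1, and all were described by the submitters as independent samples without naming the mice they came from. P-values therefore measure the spread between these samples, which may be technical.

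Collagens are secreted triple helices: fibrillar collagens bear tension, network collagens build basement membranes, and further glycoproteins, proteoglycans and the lysyl oxidases that cross-link the fibres complete the matrix. Fibroblasts, smooth muscle cells and pericytes are its main source, and macrophages are better known for remodelling it than for making it. Activated fibroblasts (myofibroblasts) add a contractile set led by smooth muscle actin, and TGF-beta and YAP/TEAD signalling are known to drive many of these genes. Marrow cultures on plastic can hold adherent stromal cells beside the macrophages.

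The libraries carried macrophage markers at high levels, with Lyz2 (lysozyme) between 12100 and 34300 TPM, Cd68 between 631 and 2380 TPM and Csf1r, the M-CSF receptor, between 660 and 1600 TPM. Fibroblast markers that are not members of the set were also present in every library: 12 of the 14 listed genes had medians above 1 TPM, with Serpinf1 between 80.7 and 373 TPM, Cdh11 between 15.3 and 52.8 TPM and Prrx1 between 12.7 and 59.7 TPM. 13 of the 14 were above 0 in all 24 libraries, and Twist2 was at 0 in 2. The summed TPM of the 14 fibroblast markers was 483 to 909 in media/vehicle, 257 to 668 in WT CM/vehicle, 373 to 833 in KEAP1 KO CM/vehicle and 650 to 1360 in NRF2 KO CM/vehicle. With CDDO-Me it was 425 to 846 in media, 186 to 458 in WT CM, 195 to 571 in KEAP1 KO CM and 391 to 852 in NRF2 KO CM. Serpinf1 (median 212 TPM) and Cxcl12 (median 126 TPM, range 4.02 to 577 TPM) weighed most in this sum. For the 9 smooth muscle and pericyte markers the sum was 317 to 408 TPM in media/vehicle, 136 to 214 in WT CM/vehicle, 210 to 372 in KEAP1 KO CM/vehicle, 328 to 518 in NRF2 KO CM/vehicle, 419 to 823 in media/CDDO-Me, 72.5 to 152 in WT CM/CDDO-Me, 96.1 to 219 in KEAP1 KO CM/CDDO-Me and 261 to 580 in NRF2 KO CM/CDDO-Me. It came mostly from Cald1, Tpm2, Actg2 and Mylk, while the mature smooth muscle genes Myh11 and Des and the pericyte genes Rgs5 and Cspg4 had medians under 1 TPM. Both sums were lower in WT CM than in media, on average, as the members' sum was, and their part in the results below was not tested. In these bulk libraries, fewer stromal cells and less RNA per stromal cell cannot be told apart. Epithelial markers summed to at most 7.23 TPM, with Epcam at 0 in 16 libraries. The 2 replicate 3 libraries of NRF2 KO CM stood apart, with 15702 (vehicle) and 16299 (CDDO-Me) genes above 0 against 17817 to 18993 elsewhere, and counts of calls are given with and without them.

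Upstream sequence from RefSeq (build GRCm38.p6) was at hand for 23 of the 37 members. The 250 bases before the annotated start are shown for Acta2, a contractile gene, Ccn1, a matricellular gene, and 2 fibrillar collagens, Col1a2 and Col3a1. Acta2, Ccn1 and Col3a1 hold the TEAD core motif, and Col1a2 does not. Capitals mark GGAATG or its reverse complement CATTCC (the core bound by TEAD factors), TATAAA (the letters of the TATA box) in Ccn1 and Col3a1, and CCAAT in Col1a2. They lie at chr19:34255374-34255623 (minus strand), chr3:145649986-145650235 (minus), chr6:4505368-4505617 (plus) and chr1:45311288-45311537 (plus).
Acta2: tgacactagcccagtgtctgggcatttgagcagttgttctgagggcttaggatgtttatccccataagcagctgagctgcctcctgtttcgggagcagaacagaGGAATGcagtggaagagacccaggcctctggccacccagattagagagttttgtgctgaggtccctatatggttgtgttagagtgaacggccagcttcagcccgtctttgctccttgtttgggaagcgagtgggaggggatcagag
Ccn1: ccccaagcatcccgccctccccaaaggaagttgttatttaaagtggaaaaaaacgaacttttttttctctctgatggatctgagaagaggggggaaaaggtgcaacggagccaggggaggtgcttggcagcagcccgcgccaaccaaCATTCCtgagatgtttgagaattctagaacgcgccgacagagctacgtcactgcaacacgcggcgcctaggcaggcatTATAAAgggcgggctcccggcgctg
Col1a2: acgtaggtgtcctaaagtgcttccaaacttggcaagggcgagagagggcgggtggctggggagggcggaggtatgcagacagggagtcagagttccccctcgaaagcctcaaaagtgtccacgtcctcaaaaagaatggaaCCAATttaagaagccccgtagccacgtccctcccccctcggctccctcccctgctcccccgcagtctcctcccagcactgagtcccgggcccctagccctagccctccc
Col3a1: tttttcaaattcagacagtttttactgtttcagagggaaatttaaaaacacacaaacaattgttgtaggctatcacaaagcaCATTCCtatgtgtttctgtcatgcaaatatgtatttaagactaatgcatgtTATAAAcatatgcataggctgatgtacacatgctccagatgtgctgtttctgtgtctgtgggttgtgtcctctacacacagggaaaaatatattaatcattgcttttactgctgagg
Read on both strands, GGAATG was present in 5 of the 23 members (21.7%; Col3a1, Col6a2, Col18a1, Acta2 and Ccn1) and in 12.6% of 32851 upstream windows of this length. TATAAA was found in 5 members (21.7% against 12.4% of all windows) and GGGCGG in 13 (56.5% against 32.7%). CCAAT was found in 6 (26.1% against 33.8%) and TGANTCA in Col6a1 (4.35% against 6.75%). The CArG box, the element of serum response factor, was searched only in its strict form, CCWWWWWWGG with W for A or T. That form was found in Myl9 (4.35% against 1.47%). Looser forms were not counted, and the Acta2 window holds ccctatatgg and ccttgtttgg, which are close to it. The marked matches do not overlap each other. TATAAA lies farther from the annotated start in Col3a1 than in Ccn1, where it is followed directly by GGGCGG. These are matches of letters, and with 23 members a share rests on few genes.

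In the GRCm39 annotation (GENCODE) the genes on which the results below turn most lie at chr19:34217737-34232990 (Acta2), chr10:24471333-24474900 (Ccn2) and chr5:75311994-75358876 (Pdgfra). In media/vehicle the collagen I chains were among the most abundant members, with Col1a1 at 499.5, 518 and 271 TPM and Col1a2, its partner chain, between 70.9 and 805 TPM over all 24 libraries. Sparc, a collagen-binding glycoprotein, ranged from 122.6 to 1146 TPM, Bgn, a small proteoglycan, from 142 to 811 TPM, Fn1 (fibronectin) from 56.6 to 501 TPM and Serpinh1, the collagen chaperone HSP47, from 52.1 to 505 TPM. Among the other fibrillar chains Col5a1 ranged from 15.3 to 178 TPM and Col5a2 from 18.1 to 178 TPM. The microfibrillar collagen VI chains were abundant for Col6a1 (46.4 to 336 TPM) and Col6a2 (37.7 to 285 TPM) and lower for Col6a3 (8.01 to 99.0 TPM). Lower levels were also found for Col4a2, a basement membrane chain (7.66 to 64.0 TPM), Col12a1 (4.84 to 91.8 TPM), the microfibril gene Fbn1 (4.77 to 34.5 TPM), Fbln2 (9.33 to 118 TPM), the lysyl oxidase homologue Loxl1 (18.5 to 87.6 TPM) and Pdgfrb, a receptor of pericytes and fibroblasts (4.95 to 48.3 TPM). Eln, which encodes elastin, had a median of 0.160 TPM and reached 3.09 TPM in 1 library (NRF2 KO CM/vehicle replicate 2). Eln alone did not pass the filter of more than 1 TPM in at least 3 libraries, so that 36 of the 37 members were tested among 13661 genes.

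The members rose and fell together between libraries of the same group. Their summed level was 0.1001% to 0.9445% of all TPM, lowest in KEAP1 KO CM/CDDO-Me replicate 3 and highest in media/CDDO-Me replicate 2. In all 8 groups the replicate numbered 2 had the highest sum and the replicate numbered 3 the lowest, and the summed fibroblast markers had the same order in all 8 groups. Of the 36 tested members, 22 (61.1%) were highest in replicate 2 in all 8 groups, against 3.18% of all 13661 genes, and 23 (63.9%) were lowest in replicate 3 in all 8 groups, against 7.77%. Without the NRF2 KO CM groups, 26 members (72.2%) were lowest in replicate 3 in all 6 remaining groups, against 11.2% of all genes. Summed macrophage markers had no such order, being highest in replicate 2 in 0 groups and lowest in replicate 3 in 3 groups. The pooled SD within groups on the log2 scale had a median of 0.591 for the members (0.341 for Mfap5 to 1.02 for Col3a1) and of 0.253 for all genes, so that a difference had to be large to pass the test. Because the members moved together, the counts below of members by sign, or by pairs of libraries with the same replicate number, are not counts of independent genes. The shares of all genes for such counts were not computed. Within KEAP1 KO CM/CDDO-Me, Col3a1 was at 136, 155 and 13.5 TPM. Some members did not follow the order: Dcn was highest in replicate 1 in 7 groups, and Thy1, a surface protein of fibroblasts and T cells, was 19.9 TPM in KEAP1 KO CM/CDDO-Me replicate 1 and 6.08 and 4.82 TPM in the other 2.

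**Figure D1:**
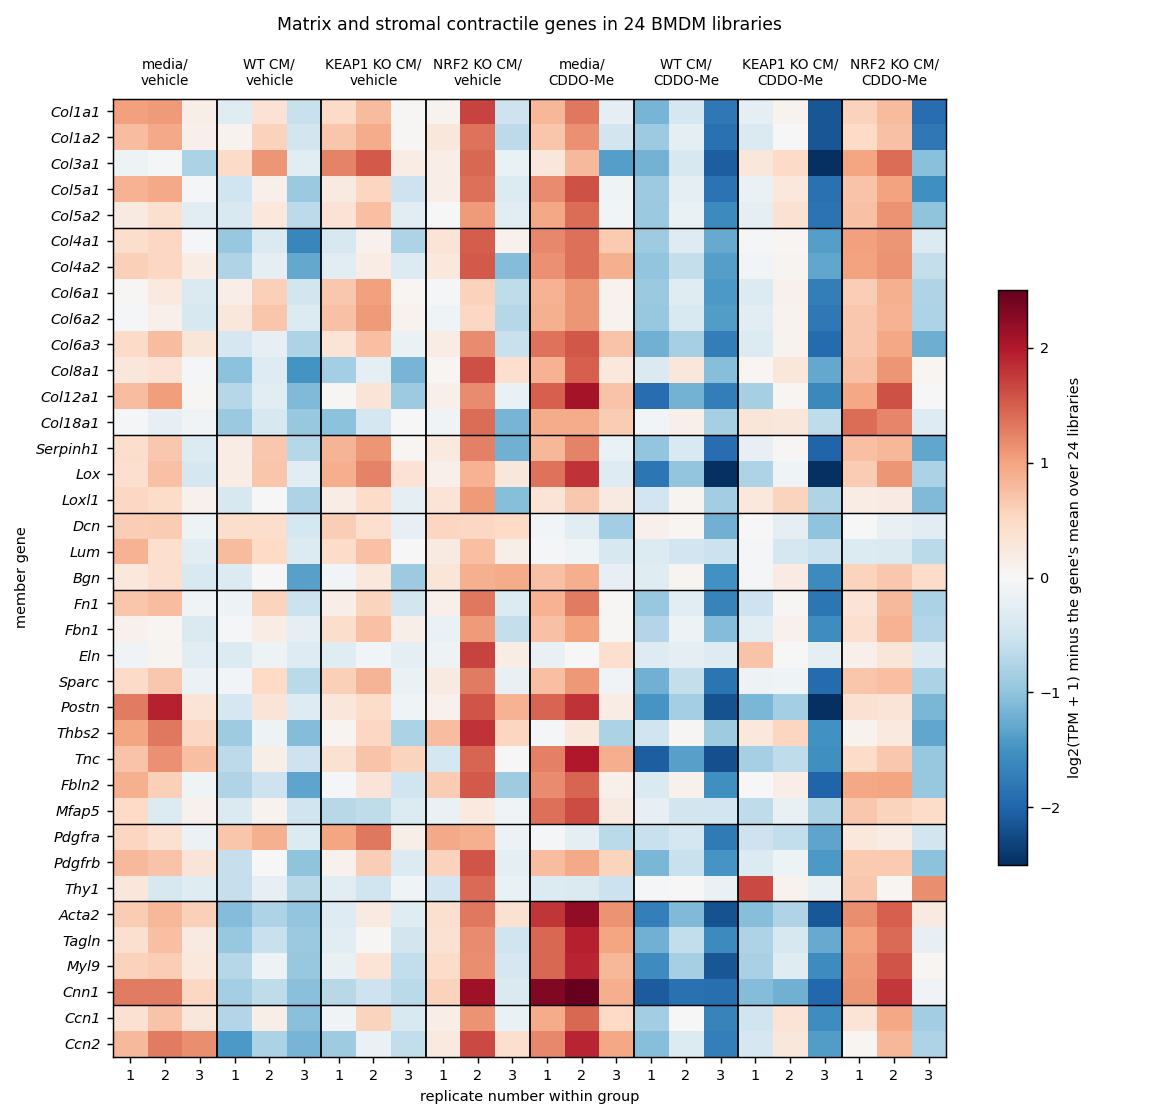
Heatmap of the 37 members (rows, grouped by role) in the 24 libraries (columns, grouped by medium and treatment), coloured by log2(TPM + 1) minus the mean of the gene over all libraries. In each group the column of replicate 2 is the reddest for most members and the column of replicate 3 the bluest, and the bluest groups are those treated with CDDO-Me in KEAP1 KO CM or in WT CM.

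Whether medium conditioned by WT cancer cells changed these genes was read from WT CM/vehicle against media/vehicle. The members that passed were 3 of the 4 contractile genes and 1 of the 2 Ccn genes. Acta2, smooth muscle actin, was 379, 435 and 367 TPM in media/vehicle and 114, 142 and 122.6 TPM in WT CM/vehicle. The groups did not overlap, and the fitted level in WT CM was 0.338 times that in media (log2 fold change -1.57 ± 0.34 SE, limma, Benjamini-Hochberg adjusted p = 0.00537). Ccn2, a secreted matricellular protein induced by TGF-beta and YAP, was 136, 192 and 174 TPM in media/vehicle and 28.3, 44.7 and 34.1 TPM in WT CM/vehicle. It fell to 0.227 times its level in media (log2 -2.14 ± 0.42, limma adjusted p = 0.00248), the largest fall among the members in this comparison on the log2(TPM + 1) scale, while by mean TPM Cnn1 fell further (8.10 to 1.42 TPM). Both calls held when any 1 of the 6 libraries was left out (highest adjusted p 0.0294 for Acta2 and 0.0188 for Ccn2). Tagln, the actin-binding transgelin, was 203, 258 and 179 TPM against 78.6, 103 and 79.9 TPM, again without overlap (log2 -1.20 ± 0.36, adjusted p = 0.0473 by limma). Cnn1 (calponin) was 9.62, 9.54 and 5.15 TPM against 1.40, 1.77 and 1.08 TPM (log2 -1.82 ± 0.51, limma adjusted p = 0.0338). These 4 made up the members that passed, all lower, or 11.1% of 36 against 7.23% of all 13661 genes. The median log2 fold change of the members was -0.77, with 7 of 36 above 0, and 26 of 36 were lower in WT CM in all 3 same-numbered pairs. Because the replicate numbers paired the samples in this comparison, the fit with the number as a block is given as well: 17 members passed, all lower, or 47.2% against 12.8% of all genes. The members added by the blocked limma fit were Col4a1 (log2 -1.22 ± 0.20, blocked adjusted p = 0.000452), Col4a2, Col5a1, Col6a3, Col8a1, Col12a1 (-1.23 ± 0.18, adjusted p = 0.000133), Postn, Thbs2 (-1.57 ± 0.23, adjusted p = 0.000128), Tnc, Fbln2, Pdgfrb, Myl9 (-1.01 ± 0.15, adjusted p = 0.000174) and Ccn1 (-0.93 ± 0.20, adjusted p = 0.00467). Without the 2 NRF2 KO CM libraries with the fewest genes, which are not in this comparison but share its estimate of spread, 11 passed (30.6%, against 18.8% of all genes). The call of Tagln was lost without any 1 of the 6 libraries and that of Cnn1 without any but media/vehicle replicate 3 (highest adjusted p 0.177 and 0.134), which left 2 passing without each of 5 libraries and 3 without media/vehicle replicate 3.

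None of the 5 fibrillar collagens passed in this comparison without the block, and of them Col5a1 alone passed with it. Col1a1 was 199, 314 and 167 TPM in WT CM/vehicle, and its highest library lay above the lowest media/vehicle library (log2 -0.84, limma adjusted p = 0.595). Col3a1 was 102, 108 and 63.6 TPM in media/vehicle and 156, 240.4 and 92.9 TPM in WT CM/vehicle (log2 0.83, limma adjusted p = 0.693). Its value was thus the opposite in sign to that of Col1a1, with overlapping groups.

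**Figure D2:**
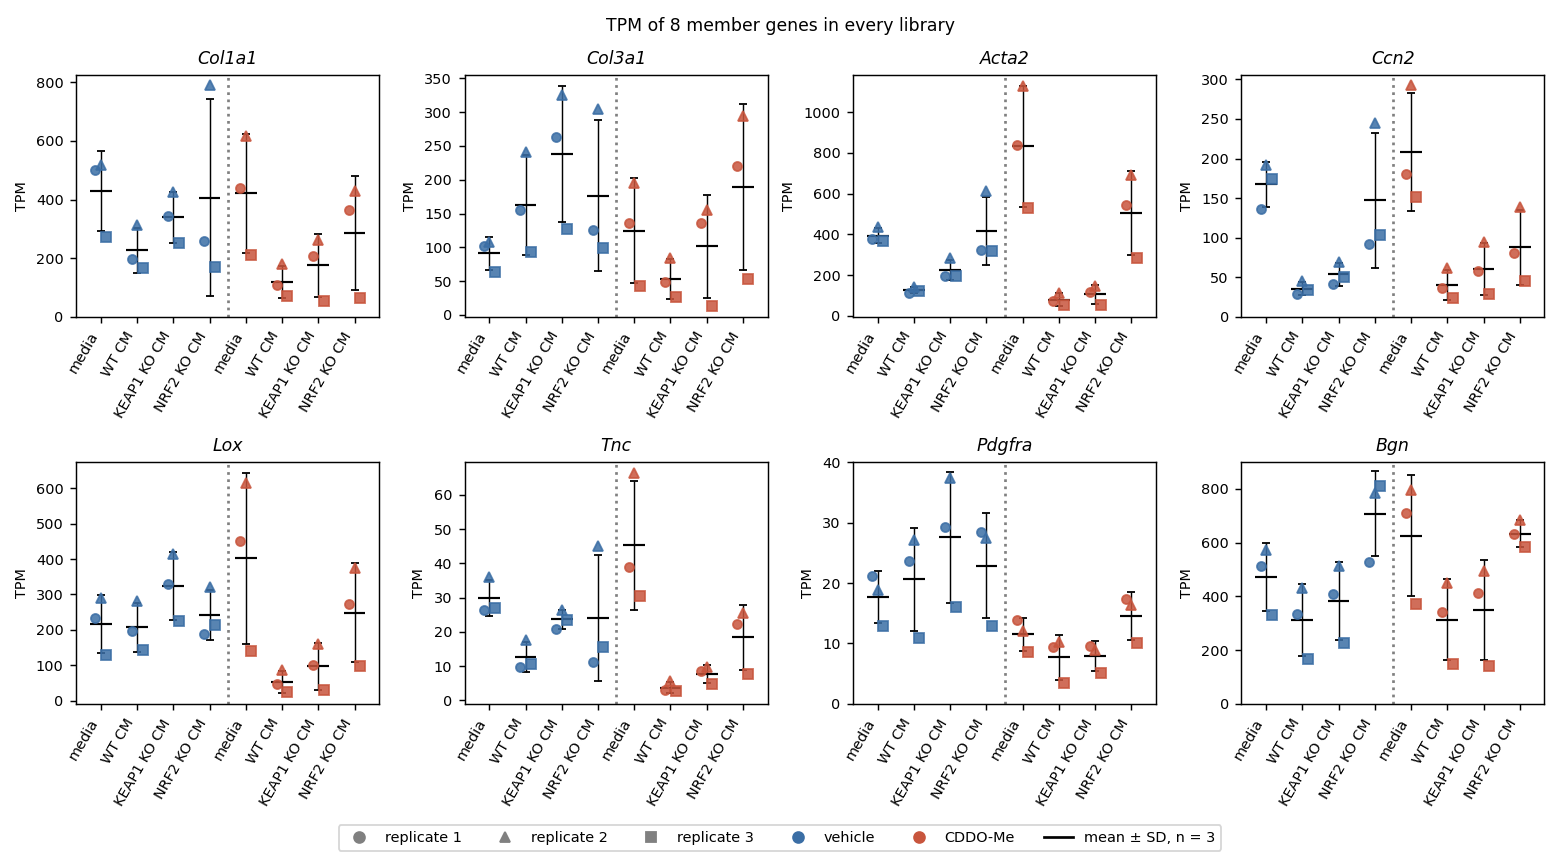
TPM of 8 members in every library by medium (x axis), with vehicle in blue and CDDO-Me in red, symbols for the replicate number, and black bars for the mean ± SD of 3 libraries. Acta2 and Ccn2 in WT CM/vehicle lie below every media/vehicle library, and Lox and Tnc in WT CM and KEAP1 KO CM lie lower with CDDO-Me than with vehicle in every library.

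KEAP1 KO CM/vehicle was compared with media/vehicle in the same way. Ccn2 was 41.3, 69.3 and 50.8 TPM in KEAP1 KO CM/vehicle, below all media/vehicle libraries (log2 -1.64 ± 0.42, limma adjusted p = 0.0184), and it was the only member that passed, or 2.78% of 36 against 8.06% of all genes. Acta2 was 194, 282 and 198 TPM there, also without overlap, but did not pass (log2 -0.82, limma adjusted p = 0.166). The median log2 fold change of the members was -0.36, with 10 of 36 above 0, and in the same-numbered pairs 24 members were lower and 9 higher in all 3. Ccn2 no longer passed without media/vehicle replicate 2 or 3 or KEAP1 KO CM/vehicle replicate 1 or 3 (adjusted p up to 0.0914, 0 members passing), and 2 members passed without the NRF2 KO CM libraries with the fewest genes (5.56%, against 21.0% of all genes). The fit with the replicate number as a block passed 13 members, 9 lower and 4 higher, or 36.1% against 13.1% of all genes. No member passed in NRF2 KO CM/vehicle against media/vehicle, where 1 of 13661 genes (0.00732%) did. The median log2 fold change of the members was -0.02 and 18 of 36 were above 0. Acta2 was 321, 612 and 316 TPM in NRF2 KO CM/vehicle, on both sides of the media/vehicle values (log2 0.01 ± 0.34).

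In the direct comparison of KEAP1 KO CM/vehicle with WT CM/vehicle, no member passed (0 of 36 with limma, and 0 of 13661 genes, 0.0%, with 350 genes at an unadjusted p under 0.05). Of the values, 35 of 36 members had a positive log2 fold change, with Mfap5 as the exception and a median of 0.445, and 29 of 36 were higher in KEAP1 KO CM in all 3 same-numbered pairs. As the members moved together, these counts are not independent, and the shares of all genes were not computed. The log2 fold change was 0.74 ± 0.34 for Acta2 and 0.83 ± 0.41 for Tnc, and neither overlapped between the groups. With the replicate block, 0 members and 2 of all genes (0.0146%) passed. The summed fibroblast markers were 476 ± 207 TPM in WT CM/vehicle and 635 ± 236 TPM in KEAP1 KO CM/vehicle (SD, n = 3).

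Against NRF2 KO CM/vehicle, WT CM/vehicle was lower in 5 members, or 13.9% of 36 against 10.6% of all genes. Acta2 (log2 -1.58 ± 0.34, limma adjusted p = 0.0044) and Ccn2 (-1.82 ± 0.42, 0.00811) fell here as against media and passed without any 1 library. The other 3 were a basement membrane chain, Col4a1 (log2 -1.56 ± 0.42, limma adjusted p = 0.0204), the network collagen Col8a1 (-1.56 ± 0.44, 0.0258) and Thbs2, the matricellular thrombospondin 2 (-1.67 ± 0.48, 0.0309). Thbs2 was 15.7, 27.2 and 13.5 TPM in WT CM/vehicle and 51.5, 106 and 43.7 TPM in NRF2 KO CM/vehicle, with no overlap. Col8a1 was also the only member to pass in KEAP1 KO CM/vehicle against NRF2 KO CM/vehicle (log2 -1.44 ± 0.44, limma adjusted p = 0.0438; 2.78% against 9.04% of all genes), at 10.7, 16.8 and 8.51 TPM against 20.8, 63.6 and 27.5 TPM. Col4a1, Col8a1 and Thbs2 were each lost without WT CM/vehicle replicate 1, WT CM/vehicle replicate 3 or NRF2 KO CM/vehicle replicate 2 (2 passing), while 9 passed without NRF2 KO CM/vehicle replicate 3 alone (8.45% of all genes) and 13 without both NRF2 KO CM libraries with the fewest genes (36.1%, against 15.4% of all genes). In the comparison of KEAP1 KO CM with NRF2 KO CM, 0 passed without KEAP1 KO CM/vehicle replicate 1 or 3 or NRF2 KO CM/vehicle replicate 2, 2 without NRF2 KO CM/vehicle replicate 1, of which Col8a1 was 1, and 4 without both libraries with the fewest genes (11.1%, against 13.2% of all genes). Col8a1 itself missed the threshold without NRF2 KO CM/vehicle replicate 3. Blocked by replicate number, 14 members passed for WT CM against NRF2 KO CM, all lower (38.9%, against 18.7% of all genes). For KEAP1 KO CM against NRF2 KO CM 12 passed with the block, 10 lower and 2 higher (33.3%, against 16.1% of all genes).

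**Figure D3:**
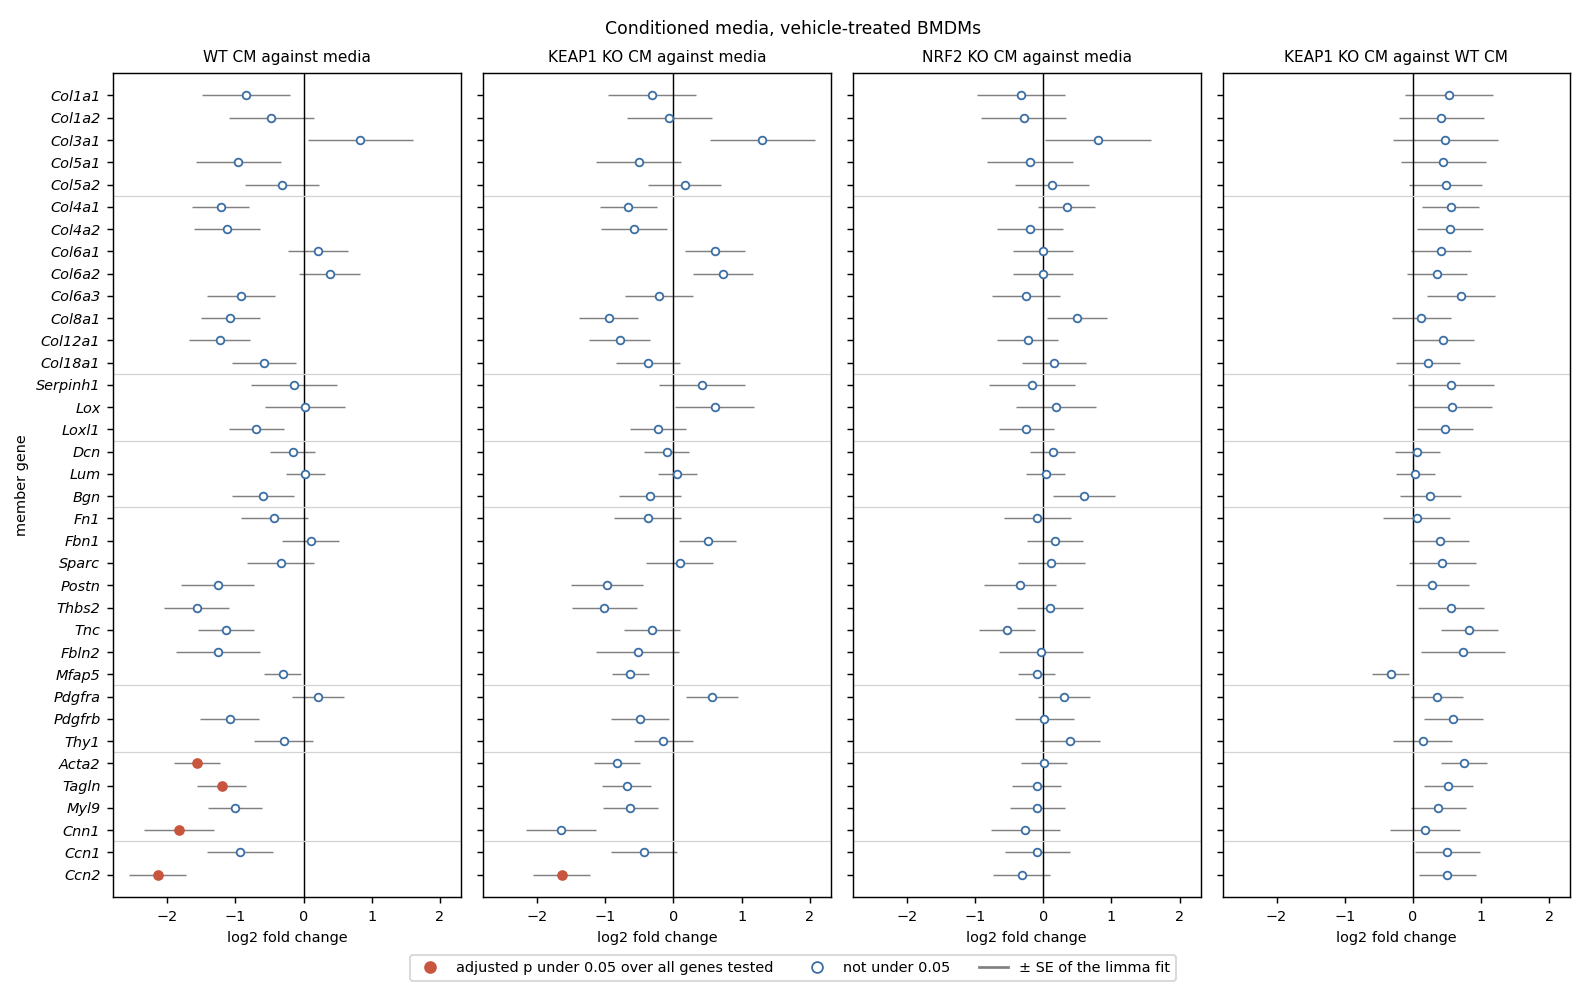
Log2 fold change of the 36 tested members between media in vehicle-treated BMDMs (x axis), with bars of ± 1 SE from the limma fit and filled red points for an adjusted p under 0.05. Ccn2 (-2.14) and Cnn1 (-1.82) lie furthest to the left in WT CM against media, and all points but Mfap5 lie to the right of 0 in KEAP1 KO CM against WT CM.

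CDDO-Me was then compared with vehicle in each medium. In media, 1 member passed, Mfap5, which encodes a microfibril-associated glycoprotein: 6.07, 7.47 and 2.21 TPM with CDDO-Me against 2.86, 1.17 and 1.94 TPM with vehicle (log2 0.99 ± 0.27, limma adjusted p = 0.0336), with groups that overlapped. That is 2.78% of 36 members against 6.02% of all genes. The 4 contractile genes did not pass. Acta2 was 839.7, 1127 and 529.8 TPM with CDDO-Me, above every vehicle library (log2 1.03 ± 0.34, limma adjusted p = 0.0814), and Tagln was 415, 589.5 and 307 TPM (1.02, 0.117). Myl9, a regulatory light chain of smooth muscle myosin, had a log2 fold change of 0.92 and Cnn1 one of 1.06. The replicate numbers paired the samples here too, and with the block 11 members passed (30.6%, against 10.7% of all genes). Higher were Acta2 (1.03 ± 0.20, blocked adjusted p = 0.0023), Tagln (1.02 ± 0.19, 0.00156), Myl9 (0.92 ± 0.15, 0.000489), Col4a1, Col6a1, Col6a2, Col12a1 and Mfap5. Lower were Thbs2 (-1.11 ± 0.23, 0.00359), Dcn and Pdgfra. Mfap5 did not pass without media/vehicle replicate 2 or 3 or media/CDDO-Me replicate 1 or 2 (adjusted p up to 0.211, 0 members passing), and 3 members, all higher, passed without the NRF2 KO CM libraries with the fewest genes (8.33%, against 14.9% of all genes).

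In WT CM 3 members fell with CDDO-Me. The lysyl oxidase Lox, which cross-links collagen and elastin, was 198, 281 and 144 TPM with vehicle and 49.1, 87.4 and 25.3 TPM with CDDO-Me, a fall to 0.266 times the vehicle level without overlap (log2 -1.91 ± 0.58, limma adjusted p = 0.0178). Tnc, the glycoprotein tenascin C of remodelling tissue, was 9.60, 17.6 and 10.7 TPM with vehicle and 3.00, 5.53 and 2.67 TPM with CDDO-Me (log2 -1.43 ± 0.41, limma adjusted p = 0.0125). Pdgfra, a receptor that marks fibroblasts, was 23.6, 27.2 and 11.0 TPM and 9.45, 10.3 and 3.48 TPM (log2 -1.21 ± 0.38, limma adjusted p = 0.021). None of the 3 overlapped between vehicle and CDDO-Me, and these 3 members were 8.33% of 36 against 27.9% of all genes. The median log2 fold change of the members was -0.55, with 9 of 36 above 0, and in the same-numbered pairs 23 members were lower and 6 higher in all 3. Cnn1 was listed at 0.0152, 0.187 and 0.172 TPM with CDDO-Me against 1.40, 1.77 and 1.08 TPM, and did not pass on the log2(TPM + 1) scale, which compresses low values. No member passed without WT CM/vehicle replicate 2 or without WT CM/CDDO-Me replicate 3, Pdgfra was also lost without WT CM/vehicle replicate 1 (2 passing; highest adjusted p 0.158 for Pdgfra, 0.109 for Lox and 0.0714 for Tnc), and 6 passed without the NRF2 KO CM libraries with the fewest genes (16.7%, against 43.0% of all genes). The blocked fit passed 17 members here, 16 lower and 1 higher, or 47.2% against 33.7% of all genes.

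In KEAP1 KO CM the same 3 genes fell with CDDO-Me, with Postn and Acta2 beside them. Pdgfra was 29.3, 37.4 and 15.97 TPM with vehicle and 9.64, 8.99 and 5.14 TPM with CDDO-Me (log2 -1.48 ± 0.38, limma adjusted p = 0.00508), a call that held without any 1 library. Lox was 329.6, 415 and 225 TPM and 102, 162 and 30.1 TPM (log2 -1.80 ± 0.58, limma adjusted p = 0.0245). Tnc was 20.9, 26.4 and 23.6 TPM and 8.48, 9.76 and 4.81 TPM (log2 -1.39 ± 0.41, limma adjusted p = 0.0142). Postn (periostin, a matricellular protein of activated fibroblasts) was 47.8, 53.7 and 36.1 TPM and 17.1, 21.0 and 4.45 TPM (log2 -1.68 ± 0.53, limma adjusted p = 0.0218). Acta2 was 194, 282 and 198 TPM and 116, 144 and 55.6 TPM (log2 -1.003 ± 0.34, limma adjusted p = 0.0294). None of the 5 overlapped between vehicle and CDDO-Me, and they were 13.9% of 36 members against 28.8% of all genes, with a median log2 fold change of -0.64 for the members. In the same-numbered pairs 25 members were lower and 2 higher in all 3. Without KEAP1 KO CM/CDDO-Me replicate 3, Pdgfra alone passed (1 member). Without KEAP1 KO CM/vehicle replicate 2 Lox, Postn and Acta2 were lost (2 passing), without KEAP1 KO CM/vehicle replicate 1 Lox and Postn (3 passing). Without the NRF2 KO CM libraries with the fewest genes 7 passed (19.4%, against 44.8% of all genes). The highest adjusted p values were 0.176 for Lox, 0.161 for Postn, 0.2 for Acta2 and 0.077 for Tnc. Blocked by replicate number, 19 members passed, all lower, or 52.8% against 35.3% of all genes.

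In NRF2 KO CM, 0 of 36 members passed, against 9.61% of all genes, and the members had a median log2 fold change of -0.07. The lowest log2(TPM + 1) fold change was that of Thbs2 (-1.33, limma adjusted p = 0.0964), which was 51.5, 106 and 43.7 TPM with vehicle and 31.8, 35.1 and 11.4 TPM with CDDO-Me, without overlap. With the replicate block, the numbers again pairing the samples, 5 members passed (13.9%, against 14.5% of all genes): Thbs2 (-1.33 ± 0.23, blocked adjusted p = 0.000553), Lum (-0.81 ± 0.20, 0.0115), Pdgfra (-0.54 ± 0.15, 0.0239) and Dcn (-0.62 ± 0.20, 0.0486) lower, and Myl9 (0.53 ± 0.15, 0.0237) higher. Without NRF2 KO CM/vehicle replicate 2, 1 member passed in the fit without the block, and 0 passed without the libraries with the fewest genes (9.56% of all genes).

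Averaged over the 4 media, CDDO-Me left 8 members past the threshold, 6 lower and 2 higher, or 22.2% of 36 against 38.1% of all genes. Pdgfra fell (log2 -0.95 ± 0.19, limma adjusted p = 0.000442), as did the small leucine-rich proteoglycans Lum (-0.68 ± 0.14, 0.000669) and Dcn (-0.57 ± 0.16, 0.00881), which bind and space collagen fibrils. Lum was low throughout: it was 1.89, 1.12 and 0.299 TPM in media/vehicle and 0.566, 0.480 and 0.201 TPM in media/CDDO-Me. Dcn was 39.5, 40.0 and 22.9 TPM in media/vehicle and 24.1, 20.7 and 13.4 TPM in media/CDDO-Me. Postn (log2 -0.98 ± 0.27, limma adjusted p = 0.00628), Tnc (-0.63 ± 0.21, 0.0202) and Lox (-0.77 ± 0.29, 0.0449) were lower too, although in media Lox and Tnc were higher with CDDO-Me in all 3 same-numbered pairs (fitted log2 0.73 and 0.54, neither passing). In media Postn was near level, with a mean of 99.1 TPM with vehicle and 96.9 TPM with CDDO-Me. The 2 that rose were Col18a1, the basement membrane collagen from which endostatin is cut (0.74 ± 0.23, limma adjusted p = 0.0167), and Mfap5 (0.41 ± 0.14, 0.023). By mean TPM Mfap5 rose in media and in NRF2 KO CM (1.75 to 3.07). It did not rise in WT CM (1.32 to 1.11) and was near level in KEAP1 KO CM (0.872 to 0.918). In media Col18a1 was 14.2, 12.6 and 13.6 TPM with vehicle and 28.5, 28.5 and 23.1 TPM with CDDO-Me, with separate groups. Bgn, the third proteoglycan of its class, was 512, 575 and 329 TPM in media/vehicle and 709.6, 797 and 372 TPM in media/CDDO-Me and had an averaged log2 fold change of 0.08. All calls but that of Lox held without any 1 of the 24 libraries, and Lox was lost without 12 of them (adjusted p up to 0.0895): replicates 1 and 2 of media/vehicle, WT CM/vehicle and KEAP1 KO CM/vehicle, NRF2 KO CM/vehicle replicate 2, WT CM/CDDO-Me replicate 1, and replicate 3 of each CDDO-Me group. Lox was also lost without the 2 NRF2 KO CM libraries with the fewest genes, where 7 members passed (19.4%, against 51.1% of all genes), and Tnc without all libraries numbered 3. The blocked fit of this average passed 19 members, 15 lower and 4 higher, or 52.8% against 44.5% of all genes.

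**Figure D4:**
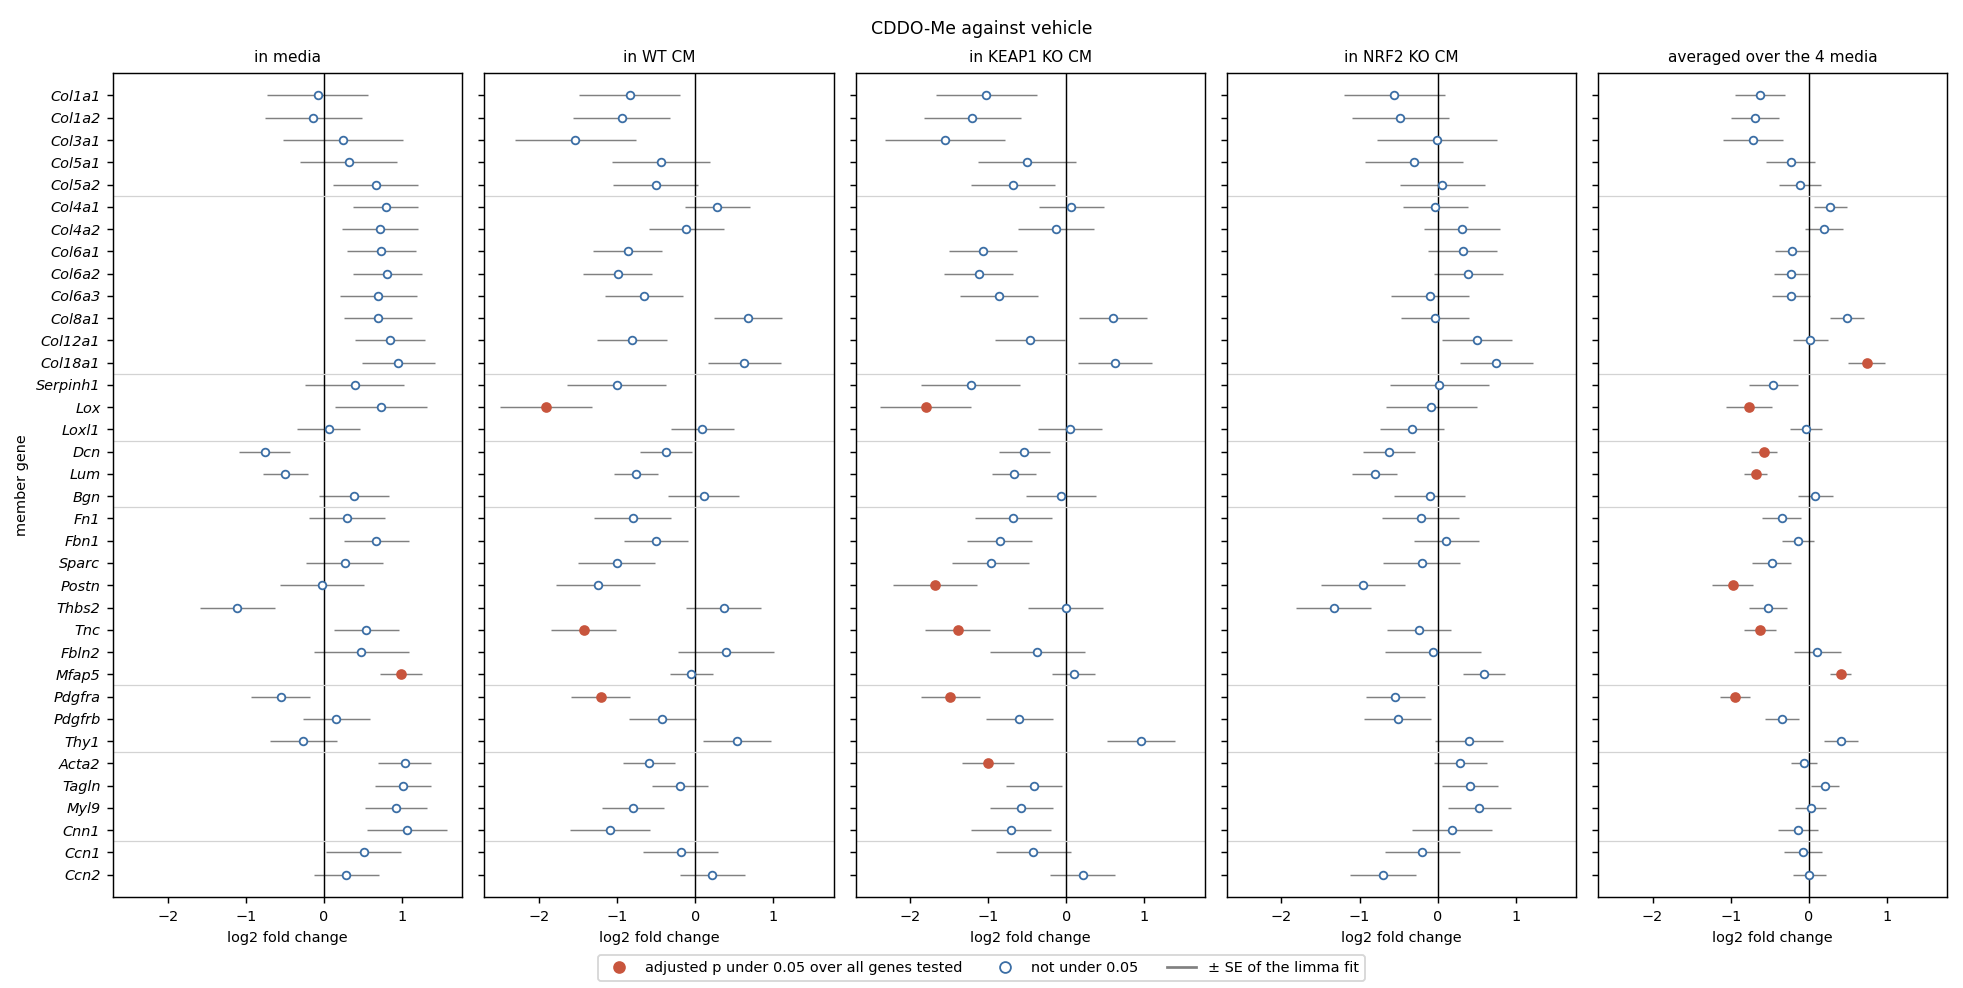
Log2 fold change of CDDO-Me against vehicle for the 36 tested members in each medium and averaged over the 4 media (x axis), with ± 1 SE of the limma fit and filled red points for an adjusted p under 0.05. The 4 contractile genes lie to the right of 0 in media and NRF2 KO CM and to the left in WT CM and KEAP1 KO CM, while Pdgfra, Dcn and Lum lie to the left in all 4 media.

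Without scaling of the libraries, the median log2 fold change of all genes shifted by -0.11 for CDDO-Me in WT CM, -0.15 for CDDO-Me in KEAP1 KO CM and -0.13 for the effect of CDDO-Me in KEAP1 KO CM minus its effect in media.

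Differences in the response to CDDO-Me between media were tested by interaction contrasts, which share the media libraries. The effect on Acta2 in KEAP1 KO CM minus that in media was -2.04 ± 0.47 on the log2 scale (limma adjusted p = 0.00491), and it stayed past the threshold without any 1 of the 12 libraries (highest adjusted p 0.0186). Lox, Tnc and Col6a2 passed as well in this contrast, and in the contrast of WT CM with media Acta2, Lox, Tnc and Myl9 did, all with lower effects in the CM. Those were 4 of 36 members (11.1%) in each, against 15.3% of all genes in the WT CM contrast and 14.8% in the KEAP1 KO CM contrast. The median difference over the members was -0.93 with WT CM and -0.96 with KEAP1 KO CM. For NRF2 KO CM against media 0 of 36 members passed with limma, as did 0 of all 13661 genes (0.0%; 359 at an unadjusted p under 0.05). Without the NRF2 KO CM libraries with the fewest genes 9 members passed in the WT CM contrast (25.0%, against 28.3% of all genes) and 10 in the KEAP1 KO CM contrast (27.8%, against 29.1%). The blocked fit passed 18 in the WT CM contrast, 17 lower and 1 higher (50.0%, against 21.2% of all genes). It passed 20 in the KEAP1 KO CM contrast, 19 lower and 1 higher (55.6%, against 21.5%).

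Ratios between 2 members within a library do not depend on how the library was scaled, and show unequal change without saying which gene changed. They were chosen after the values were seen and are given without a test. The ratio of Col3a1 to Col1a1 was 0.205, 0.209 and 0.235 in media/vehicle and 0.782, 0.765 and 0.555 in WT CM/vehicle, with no overlap. It was 0.767, 0.765 and 0.504 in KEAP1 KO CM/vehicle and 0.483, 0.385 and 0.582 in NRF2 KO CM/vehicle. All 9 CM/vehicle libraries thus lay above the 3 media/vehicle libraries, and the lowest of them was in NRF2 KO CM. The ratio of Acta2 to Col1a1 was 0.759, 0.841 and 1.35 in media/vehicle and 1.92, 1.83 and 2.51 in media/CDDO-Me, again separate, and stayed between 0.452 and 0.787 in WT CM/vehicle and KEAP1 KO CM/vehicle. Of all 24 libraries it was highest in NRF2 KO CM/CDDO-Me replicate 3, at 4.34, where Bgn to Col1a1 was also highest, at 8.95 against 1.73 and 1.60 in the other 2 libraries of the group. Tagln to Acta2, both contractile, ranged from 0.487 to 0.592 in media/vehicle and from 0.887 to 0.951 in WT CM/CDDO-Me. For the collagen I chains, Col1a2 to Col1a1 lay between 1.02 and 1.68 in all libraries. It was 1.08, 1.16 and 1.26 in media/vehicle and 1.68, 1.49 and 1.36 in WT CM/vehicle, with no overlap. KEAP1 KO CM/vehicle (1.27 to 1.48) also lay above media/vehicle, and NRF2 KO CM/vehicle (1.02 to 1.48) overlapped it.

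**Figure D5:**
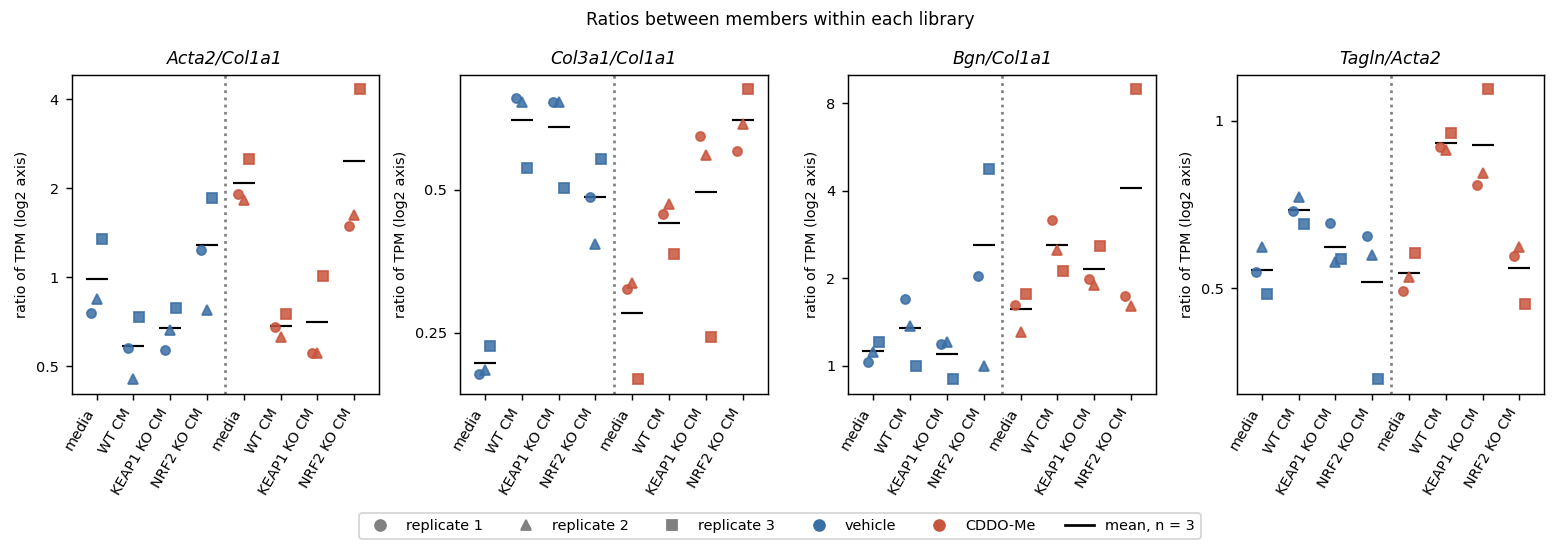
Ratios of TPM between 2 members within each library (log2 y axis) by medium, with vehicle in blue, CDDO-Me in red, symbols for the replicate number and a bar at the mean of 3 libraries. Col3a1/Col1a1 is lowest in media/vehicle among the vehicle groups, and Bgn/Col1a1 is highest in the 2 NRF2 KO CM replicate 3 libraries.

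Genes that act on or respond to the matrix were counted beside the members, against the shares of all genes given above (7.23% for WT CM against media, 27.9% for CDDO-Me in WT CM and 38.1% averaged). The lists are short, and a count near its share is no result about the list. Of 16 collagen-modifying enzymes, 2 rose in WT CM against media, the prolyl hydroxylase subunit P4hb (log2 0.35, limma adjusted p = 0.00759) and the lysyl oxidase homologue Loxl4 (0.71, 0.0353), and none fell. With CDDO-Me in WT CM 3 fell, Loxl4, Loxl3 and Crtap, and none rose. Of 14 TGF-beta pathway genes, 4 fell in WT CM against media and none rose: the receptor Tgfbr1 (log2 -1.48, limma adjusted p = 2.46e-07), the repressor Skil (-0.92, 0.000333), the latency protein Ltbp1 (-1.20, 0.000859) and Smad3. With CDDO-Me in WT CM 3 rose, with Tgfbi, a secreted matrix protein induced by TGF-beta, first (2.52; 8.94e-08), and Ltbp3 fell. Of 12 tested matrix receptors, 3 rose (Itgb3, Sdc4 and Cd44) and Itga6 fell in WT CM against media, while 2 rose and 6 fell with CDDO-Me in WT CM, where Itgb3 had a log2 fold change of -3.68 (limma adjusted p = 2.59e-10). These receptors are also expressed by macrophages. Of the fibroblast markers 0 of 13 passed in WT CM against media, with a median of -0.43, and 1, Fap, fell with CDDO-Me in WT CM. Of 8 smooth muscle and pericyte markers, Actg2 (log2 -1.50, limma adjusted p = 0.0154) and Tpm2 (-1.08, 0.0379) fell in WT CM against media. Acta2 shares much of its coding sequence with Actg2, and how reads were divided between these actins was not tested. Cdh1, the 1 tested gene of 4 epithelial markers, rose in WT CM against media (log2 2.12, limma adjusted p = 3.06e-10) and reached at most 5.19 TPM. In the same comparison Pecam1 rose and Kdr fell among 5 endothelial markers, Itgam rose and Mertk fell among 6 macrophage markers, Cd4, the 1 tested T cell marker, fell, and 0 of 4 osteoblast, 0 of 1 adipocyte and 0 of 2 granulocyte markers passed. Cd4 lay between 3.45 and 15.8 TPM, while the T cell genes Cd3e and Cd3g reached at most 0.19 and 0.407 TPM in any library. No B cell marker passed the filter on low values. Averaged over the media, CDDO-Me lowered 3 of 13 fibroblast markers (Cxcl12, Fap and Fbln1), of which 7 had values above 0 and whose median was 0.01, Rgs5 among the smooth muscle and pericyte markers, and 3 of 5 endothelial markers (Kdr, Vwf and Pecam1), and raised none of them.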

How the data were processed

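RNA of 24 BMDM libraries was sequenced, 3 for each of 8 groups named in the labels. Per the labels and the study's methods, the authors pseudoaligned reads with kallisto to the mouse GRCm39 transcriptome and deposited 1 table. The values the authors deposited were taken as TPM (transcript levels scaled by length and library total), although the file is named as counts. This was read from their sums: named genes summed to between 999364.97 and 999800.87 per library. Counts scaled to the same total would sum alike. A row without a gene name, holding 0.0199% to 0.0635%, was left out. TPM keep no read depth for each library, so no counting interval is given.

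Genes above 1 TPM in at least 3 libraries (13661) were tested on log2(TPM / scaling factor + 1), which understates changes of low genes. Scaling factors were trimmed means (30% of ratios, 5% of levels). limma 3.58.1 in R 4.3.3 was fitted to all 24 libraries with a trended variance and 2-sided tests, Benjamini-Hochberg adjusted over all genes at 0.05. The steps were tested on simulated data. Whether the replicate numbers pair samples was checked from deviations from group means: same-numbered libraries had a mean correlation of 0.256 (84 pairs) and others -0.121 (168 pairs), and 22 of 24 libraries correlated best with their own number. Deviations cancel within each group, so the mean of the others largely follows from that of the same-numbered libraries. Every same-numbered pair exceeded 0.1 in 4 comparisons (lowest 0.145 for WT CM against media, 0.15 for KEAP1 KO CM against WT CM, 0.156 for CDDO-Me in media and 0.504 for CDDO-Me in NRF2 KO CM), and blocked values stand beside those results. Blocked counts are also given for the other comparisons, where not every same-numbered pair exceeded 0.1. All members are named, and of other lists at most 3 passing genes, by adjusted p, are given with values. The members and lists were chosen with earlier results of these data known.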

Additional observations from a re-analysis of the deposited data

Results flagged for a closer look

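The effect of CDDO-Me differed between a conditioned medium and media for 8 values of 5 members, each by an interaction contrast of the limma fit that was adjusted over all genes. The contrasts share the media libraries. In WT CM the effect was lower than in media by a log2 difference of -2.64 ± 0.83 for Lox (adjusted p = 0.0348), -1.97 ± 0.58 for Tnc (0.0258), -1.62 ± 0.47 for Acta2 (0.0239) and -1.72 ± 0.57 for Myl9 (0.0469). These missed the threshold without 8, 6, 6 and 9 of the 12 libraries, with adjusted p up to 0.108, 0.0806, 0.0767 and 0.138. No member passed without media/vehicle replicate 3, WT CM/vehicle replicate 2, media/CDDO-Me replicate 2 or WT CM/CDDO-Me replicate 3, while 7 passed without media/CDDO-Me replicate 3. The count was 1 without media/vehicle replicate 1, media/CDDO-Me replicate 1 or WT CM/CDDO-Me replicate 1 and 2 without WT CM/vehicle replicate 1.

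In KEAP1 KO CM the log2 difference from media was -2.04 ± 0.47 for Acta2 (adjusted p = 0.00491 with limma), -1.93 ± 0.58 for Tnc (0.0292), -2.53 ± 0.83 for Lox (0.0446) and -1.94 ± 0.63 for Col6a2 (0.0421). Acta2 passed without any 1 of the 12 libraries. Tnc, Lox and Col6a2 were lost without 6, 8 and 8 of them (adjusted p up to 0.0904, 0.141 and 0.132). The count was 1 without media/vehicle replicate 1 or 3, KEAP1 KO CM/vehicle replicate 2, media/CDDO-Me replicate 2 or KEAP1 KO CM/CDDO-Me replicate 3. It was 2 without KEAP1 KO CM/vehicle replicate 1 or media/CDDO-Me replicate 1, 6 without KEAP1 KO CM/CDDO-Me replicate 2, and 7 without media/CDDO-Me replicate 3.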

How the results depend on the processing

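Over the 165 fold changes of members that passed with or without the replicate block, 0 of 3347 values under alternatives changed sign. As these were selected for passing, a stable sign was likely in advance and says little about the other fold changes. Of 36 calls, 13 held without any 1 library and 23 were lost without at least 1. The depth of each library cannot be read from TPM, and the wide spread between replicates of one group limits what could pass. Counts below are members passing of 36, in the order WT CM against media, KEAP1 KO CM against media, WT CM against NRF2 KO CM, KEAP1 KO CM against NRF2 KO CM, CDDO-Me in media, in WT CM, in KEAP1 KO CM, in NRF2 KO CM and averaged, and the interactions of WT CM and of KEAP1 KO CM. As reported they were 4, 1, 5, 1, 1, 3, 5, 0, 8, 4 and 4. With the replicate block, which pairs libraries by number, they were 17, 13, 14, 12, 11, 17, 19, 5, 19, 18 and 20, against 12.8%, 13.1%, 18.7%, 16.1%, 10.7%, 33.7%, 35.3%, 14.5%, 44.5%, 21.2% and 21.5% of all genes, and it changed no other count of members. Leaving out 1 library in turn gave 2 to 3, 0 to 1, 2 to 9, 0 to 2, 0 to 1, 0 to 4, 1 to 7, 0 to 1, 7 to 9, 0 to 7 and 1 to 7, and 0 to 0 for NRF2 KO CM against media, KEAP1 KO CM against WT CM and the NRF2 KO CM interaction. Without the 2 NRF2 KO CM libraries with the fewest genes the counts were 11, 2, 13, 4, 3, 6, 7, 0, 7, 9 and 10. With the compared groups alone the first 6 were 16, 7, 1, 0, 7 and 8 (16.7%, 17.9%, 1.35%, 1.07%, 13.0% and 40.5% of all genes), and the interactions 13 and 7 (27.7% and 26.1%). Without a filter on low values WT CM against media gave 2, WT CM against NRF2 KO CM 3, KEAP1 KO CM against NRF2 KO CM 0, CDDO-Me in media 0, CDDO-Me in KEAP1 KO CM 3 and the interactions 1 and 1. A filter of 5 TPM gave 2 for KEAP1 KO CM against NRF2 KO CM and 0 for CDDO-Me in media, no scaling gave 0 for the former, and a pseudocount of 0.1 gave 0 for CDDO-Me in media and 1 in NRF2 KO CM. The last alternatives were chosen after seeing the data. Array weights gave 19, 16, 16, 12, 15, 17, 16, 3, 13, 17 and 19 (30.1%, 36.7%, 24.9%, 27.0%, 25.8%, 52.2%, 51.3%, 20.4%, 59.1%, 39.6% and 39.0% of all genes), and 3 for KEAP1 KO CM against WT CM (7.14%). Leaving out all libraries numbered 3 gave 16, 7, 15, 10, 12, 11, 10 and 4 for the first 8 (23.0%, 25.7%, 20.7%, 20.6%, 18%, 44.1%, 46.8% and 17.3% of all genes), and 17 and 13 for the interactions (31.2% and 31.6%). The causes of these differences were not tested.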
